A study of Mus musculus with 24 samples.

Results

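Homologous recombination repairs a broken chromosome by copying the intact sister, and the Fanconi anaemia pathway unhooks chemical crosslinks that join both DNA strands before handing the resulting break to the same machinery. The checkpoint kinases ATR and ATM, with CHK1 and CHK2 downstream, hold the cell cycle while this happens. Copying from a sister needs a replicated chromosome, so the pathway works in S and G2 phase, and inherited loss of Fanconi genes is known for bone marrow failure through exhaustion of blood stem cells. Expression of 46 genes of this pathway, listed by name, was examined in haematopoietic stem cells (HSCs) of young and old mice. Of these, 39 had a row among the 18762 genes of the table of normalised read counts. The other 7 were not analysed here: *Rad51b*, the Fanconi core genes *Fancc*, *Fance* and *Fancm*, the crosslink ubiquitin-conjugating enzyme gene *Ube2t*, the kinase gene *Atm* and the ATR partner gene *Atrip*.

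The cells were LSK-SLAM cells, the fraction of mouse bone marrow that carries Sca-1, c-Kit and CD150 but neither lineage markers nor CD48 and that is rich in HSCs. They came from 5 young mice of 4 to 5 months and 7 old mice of 20 to 22 months, all C57BL/6 and wild type, with no treatment, and the sex was not given. These ages are those of the sample labels, and a legend in the study's supplement gives other ages for the young and old mice. About 15000 cells per mouse were sorted, and RNA-seq libraries were made from 300 pg of ribosome-depleted RNA. Each mouse had 2 labelled samples but a single column of values, so a mouse was counted once, and every value below is one mouse. Nothing in the sources used here says whether cells of several animals were pooled.

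Recovered depth ran from 861047 to 5118507 reads per mouse, so that 3 reads were worth between 0.583 and 3.69 normalised counts. The name of each mouse also ends in A or B, which the labels do not explain, with 2 young and 4 old mice in A and 3 young and 3 old in B. All 6 mice of letter A were shallower (861047 to 3106243 reads) than all 6 of letter B (3233516 to 5118507), and 36.1% of 12354 tested genes differed between the letters. Age differences of single genes are therefore given over all mice and within letters A and B. All 10 markers of the sorted population had a row and passed the minimum mean of 10 normalised counts. Their summed level was 2957 to 4880 in the young mice and 1597 to 5382 in the old. Old mouse 5 (1597) and old mouse 7 (2276) lay below every young mouse, and the other old mice had 3880 to 5382. Of the 23 tested markers of other blood cells, 0 were called between the ages by limma, with 3 at an unadjusted p under 0.05. On recovered reads edgeR's quasi-likelihood and likelihood-ratio tests and DESeq2 each called 1 of them, *Cd34*, with 6 unadjusted. With the letter as a covariate limma called *Cd34* too (limma adjusted p = 0.00856). The summed level of the progenitor markers *Cd48*, *Flt3* and *Cd34*, which lie outside the sorted population or mark its more active cells, was 167 to 293 in the young and 98.0 to 139.0 in the old mice, without overlap. Singly, each of these genes overlapped between the ages. *Cd34*, the largest part of the sum, had 99.5 to 224 in the young and 69.4 to 104 in the old. *Flt3* had 42.6 to 74.3 and 14.2 to 46.6. *Cd48*, which was below the minimum mean, had 5.10 to 9.99 and 0.583 to 11.8. The sum of 8 neutrophil and monocyte genes was 263 to 602 in the young and 245 to 2411 in the old. In bulk RNA, fewer cells of a type and less RNA per cell cannot be told apart.

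All 39 genes passed the minimum mean of 10 normalised counts, from 10.6 for *Rpa3*, the smallest subunit of the single-strand binding protein RPA, to 226 for *Topbp1*, the activator of ATR. Their median, 45.2, lay above the 35.9 of all tested genes, but their exons were longer too, with a median of 5774 bases against 4632. Per kilobase of exon the median was 8.34 normalised counts against 8.15, with 20 of the 39 above the latter. Each gene had between 4 and 1685 reads in a mouse.

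Per kilobase, the sensors of DNA breaks were at the top and several strand-exchange genes at the bottom. The length of a gene was that of all its annotated exons together, so this order depends on the annotation too. *Rbbp8*, the lowest, had 42.9 normalised counts, near the median of 45.2, over 12521 bases, and *Nbn* had 61.9 over 2533 bases. *Rad50* and *Nbn*, which with *Mre11a* encode the complex that holds and trims broken ends, averaged 33.3 and 24.4 normalised counts per kb, and *Mre11a* averaged 17.2. The level of *Rad50* ranged from 18.9 to 51.9 over the mice, which spans those of *Nbn* and *Mre11a*. *Topbp1* (20.2), the RPA large-subunit gene *Rpa1* (19.2), the strand-exchange gene *Rad51d* (18.6) and *Rad9a* (16.7), part of the 9-1-1 clamp that loads at resected DNA, were also among the 7 highest. Each overlapped its neighbours in this order in its range over the mice. *Brca2*, needed for strand exchange at resected ends, averaged 9.04 per kb and *Brca1*, which promotes resection, averaged 6.89. The lowest were *Rbbp8* (3.42), the partner of MRE11 in starting resection, the motor protein gene *Rad54l* (3.57), the clamp subunit gene *Rad1* (3.73) and *Rad51ap1* (3.83), which stimulates strand pairing.

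A further shared property that the list did not use was position. Chromosome 11 carried 8 of the 39 genes (20.5%) against 9.45% of tested genes: *Brca1*, *Brip1*, *Rad51c*, *Rad51d*, *Rad50*, *Fancl*, *Rpa1* and *Hus1*. Among mice of the same age, the coefficient of variation had a median of 28.0% for these genes and 33.1% for all tested genes, while counting reads alone would give a median of 9.96%. *Rpa1* (15.2%) and *Mre11a* (16.0%) varied least between mice. The most variable were the strand-exchange genes *Rad54b* (56.1%), *Rad51ap1* (55.2%) and *Rad51c* (55.1%).

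Many genes of DNA replication and repair are driven by E2F factors, which bind short words of known letters, so the promoters of the pathway were searched for such words. RefSeq promoter windows (GRCm38.p6, 250 bases before to 50 after the start of a gene) were matched for 30 of the 39 genes. One of the words TTTGGCGC, TTTCGCGC, TTTCCCGC and TTTGCCGC, on either strand, was found for 7 of these genes (23.3%). The share was 4.33% of 9721 tested genes and 2.60% of all 27025 genes with a window. CCAAT, the word bound by NF-Y, was in 18 (60.0%) against 42.7% of tested genes, and TTTGAA, a cell cycle word, was in 2 (6.67%; *Bard1* and *Hus1*) against 15.3%. These are matches of letters only, and binding was not measured. The 7 genes with an E2F word were *Brca2*, *Bard1* (the partner of BRCA1), *Rad51c* (strand exchange, with a second annotated start), *Fancg* (Fanconi core), *Chek2* (a checkpoint kinase), *Topbp1* and *Clspn* (the adaptor between ATR and CHK1). The stretches are shown because these genes fall in 3 of the roles described next. They are written 5′ to 3′ on the strand of the gene, with the word or its reverse complement in capitals:
Brca2, chr5:150522423-150522490, plus strand: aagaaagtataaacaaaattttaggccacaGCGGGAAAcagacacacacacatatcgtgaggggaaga
Bard1, chr1:71103163-71103192, minus strand: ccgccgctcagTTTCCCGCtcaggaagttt
Rad51c, upstream start, chr11:87404941-87404970, minus strand: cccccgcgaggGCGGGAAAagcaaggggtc
Rad51c, downstream start, chr11:87404477-87404506, minus strand: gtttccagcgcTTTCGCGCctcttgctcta
Fancg, chr4:43010335-43010364, minus strand: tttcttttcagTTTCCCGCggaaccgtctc
Chek2, chr5:110839801-110839868, plus strand: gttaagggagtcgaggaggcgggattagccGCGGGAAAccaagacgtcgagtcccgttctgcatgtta
Topbp1, chr9:103305187-103305216, plus strand: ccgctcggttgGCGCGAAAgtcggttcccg
Clspn, chr4:126556990-126557019, plus strand: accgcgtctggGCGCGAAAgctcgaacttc

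The first question of the design is whether the pathway differs between young and old HSCs. No member passed the test: 0 of the 39 were called old against young (limma, Benjamini-Hochberg adjusted p under 0.05), where 0.105% of all tested genes were. A single gene, *Rpa2*, had an unadjusted p under 0.05, against 3.95% of all genes. On recovered reads, edgeR's quasi-likelihood test, edgeR's likelihood ratio test and DESeq2 called 0 members too, with 1, 1 and 2 unadjusted p-values under 0.05. The signs were uneven: the old mean was below the young mean on the log2 scale in 32 of the 39 (82.1%), against 52.3% of all tested genes. The differences were small, with a median of −0.18 on the log2(value + 1) scale against −0.02 for all genes, and they ran from −0.56 to 0.38. In no member were the old mice separate from the young, which 0.461% of all genes were.

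**Figure D1:**
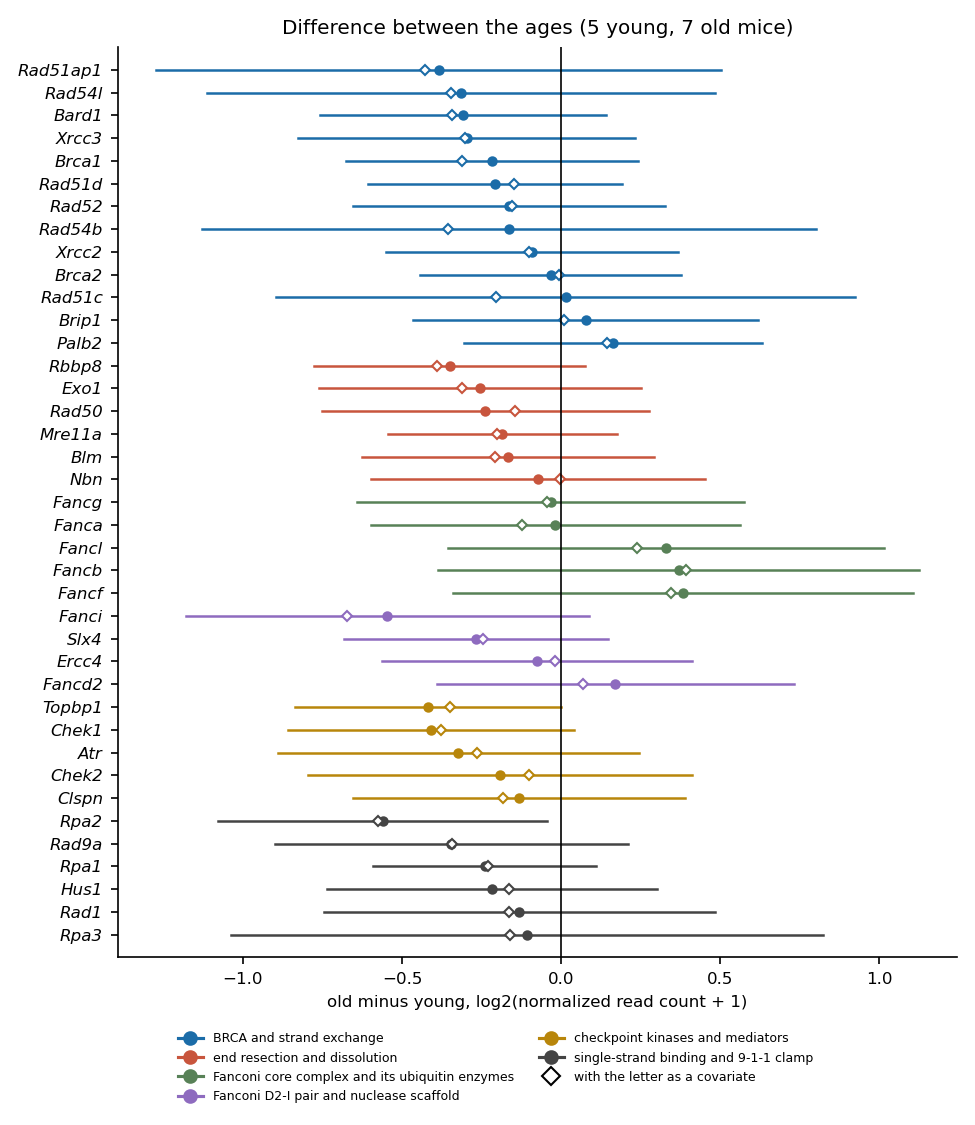
Old minus young difference of each gene on the log2(value + 1) scale (5 young, 7 old mice), coloured by role, as a filled point with its 95% interval from limma, and as an open diamond with the letter as a covariate. The filled points of 32 of the 39 genes lie below 0, and 38 of the 39 intervals include 0.

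The data bounded these differences only in part. For 38 of the 39 genes the 95% interval of the difference included 0. It lay within a doubling or halving (1 on the log2 scale) for 30 genes, and within 1.5-fold for 4. The distance from the difference to either end of its interval ran from 0.35 to 0.96, with a median of 0.52.

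The single-strand binding and clamp genes were all lower on average in the old mice (6 of 6 below 0, median −0.23). *Rpa2* encodes the middle subunit of RPA, which coats single-stranded DNA during resection and replication. It lies on chromosome 4 from 132768332 to 132778752 (GRCm38, plus strand). Its level was 41.7, 39.9, 47.3, 53.0 and 29.4 normalised counts in the 5 young mice, and ran from 15.2 through a median of 30.5 to 36.6 in the old. Apart from young mouse 5, each young mouse was above every old one. The means were 42.2 ± 8.83 and 28.7 ± 7.05 (SD), and the difference was −0.56 on the log2 scale (SE 0.25, 95% interval −1.08 to −0.04; limma p = 0.0353, adjusted p = 1.0). Within letter A it was −0.46 and within letter B −0.68. The promoter window of *Rpa2* held 3 CCAAT words, all on the strand opposite to the gene, shown here in capitals because this is the member with the lowest p:
Rpa2, chr4:132768114-132768327, plus strand: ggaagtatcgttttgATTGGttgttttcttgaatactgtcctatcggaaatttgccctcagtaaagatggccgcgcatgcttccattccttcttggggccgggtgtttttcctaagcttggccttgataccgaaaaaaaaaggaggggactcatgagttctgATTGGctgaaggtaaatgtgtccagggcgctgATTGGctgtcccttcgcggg

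The large subunit gene *Rpa1* had 108, 103, 107, 134 and 136 normalised counts in the young mice and 79.2 to 128 in the old, with a median of 99.9. The groups overlapped, and the difference was −0.24 (SE 0.17; −0.07 in letter A, −0.37 in letter B). *Rpa3* differed by −0.11 (−0.38 in letter A, 0.03 in letter B), with a standard error of 0.44 at its low level. The 9-1-1 clamp genes *Rad9a*, *Hus1* and *Rad1*, whose ring recruits TOPBP1 to damaged DNA, differed by −0.35, −0.22 and −0.13. Within letter A these were −0.39, −0.44 and −0.20, and within letter B −0.30, 0.09 and −0.14, so that *Hus1* changed sign.

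All 5 checkpoint genes with a row were below 0 as well, with a median of −0.32. *Topbp1*, on chromosome 9 from 103305215 to 103350428 (plus strand), had 288, 187, 331, 238 and 282 normalised counts in the young mice, and 137 to 256 in the old, with a median of 193. It carried an E2F word 129 to 122 bases before its RefSeq start (above), and 3 of the young mice were above every old one. Its means were 265 ± 54.4 and 198 ± 42.5, a difference of −0.42 (SE 0.20; limma p = 0.050, adjusted p = 1.0), with −0.46 in letter A and −0.25 in letter B. *Chek1*, the kinase that ATR activates, had 47.6, 41.8, 58.1, 38.1 and 35.0 in the young and 24.6 to 41.2 in the old, with a median of 33.9. It differed by −0.41 (SE 0.21; −0.60 in letter A, −0.18 in letter B). *Atr*, the kinase that senses RPA-coated DNA, had 164, 139, 153, 107 and 140.4 in the young and 43.4 to 172 in the old, with a median of 129.6. Its difference was −0.32 (SE 0.27) over all mice, −0.75 in letter A and 0.17 in letter B. Without old mouse 5, which had the lowest level, it was −0.10. *Chek2*, the kinase downstream of ATM, differed by −0.19 (SE 0.29; −0.17 in letter A, −0.04 in letter B): it had 40.4, 39.9, 59.7, 60.2 and 48.8 in the young and 19.9 to 63.0 in the old, with a median of 54.8 that lay within the young range. *Clspn* differed by −0.13, with opposite signs in letter A (0.27) and letter B (−0.59).

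**Figure D2:**
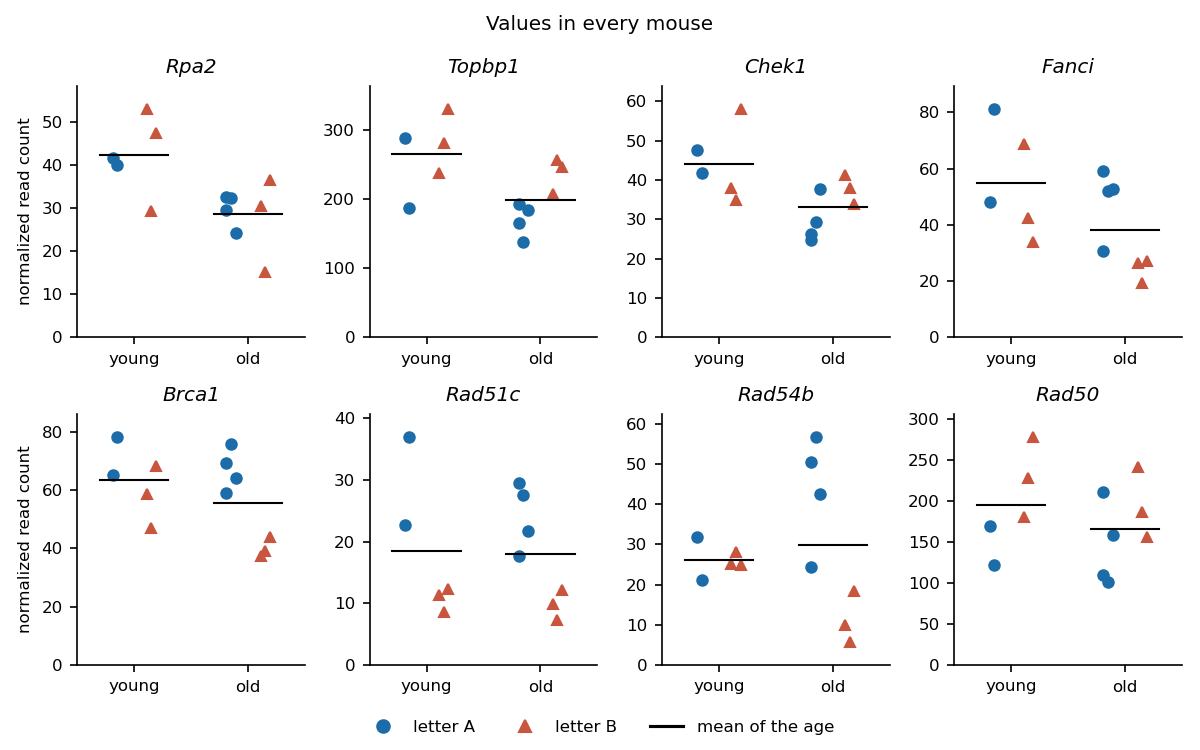
Normalised read counts of 8 of the genes in each of the 12 mice, with young and old mice side by side, letter A as circles, letter B as triangles and a line at the mean of each age. Old and young mice overlap in all 8, and in *Rad51c* the letters lie apart, with 17.6 to 37.0 in A and 7.34 to 12.4 in B.

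Among the genes of BRCA proteins and strand exchange, 10 of the 13 with a row were below 0, with a median of −0.16. *Brca1* lies on chromosome 11 from 101488764 to 101551955 (minus strand). Its level was 65.0, 78.4, 68.3, 58.7 and 47.0 in the young mice and 37.5 to 75.8 in the old, with a median of 59.0. The old mice covered nearly the young range, and the difference was −0.22 (SE 0.22; −0.10 in letter A, −0.51 in letter B). *Brca2* had 142, 90.4, 167, 104 and 123 in the young and 93.1 to 153 in the old, with a median of 133. Its difference was −0.03 (SE 0.20, 95% interval −0.44 to 0.38), and the signs were opposite in the letters (0.03 and −0.04). *Rad51d* had 71.9, 66.3, 93.2, 59.7 and 82.8 in the young and 45.5 to 80.2 in the old, with a median of 62.4 and a difference of −0.21 (SE 0.19; −0.32 in letter A, 0.01 in letter B). *Rad51c*, with a difference of 0.01 (SE 0.43), had 22.7, 37.0, 12.4, 11.4 and 8.52 in the young and 7.34 to 29.5 in the old, with a median of 17.6. Its spread followed the letters, as described later.

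*Rad54b*, a motor protein gene related to *Rad54l*, was the most variable of all, with 31.7, 21.2, 24.9, 25.1 and 28.2 in the young and 5.82 to 56.8 in the old, with a median of 24.4. The young mice were close together, and the old ones lay on both sides of them. Its age difference was −0.16 (SE 0.46) over all mice, 0.66 within letter A and −1.26 within letter B, and it shares exonic sequence with *Fsbp* on the same strand, so the reads of this pair may not be separable. Of the remaining members of the class, 6 were below 0. *Rad51ap1* (−0.39; −0.21 in letter A, −0.62 in letter B), *Rad54l* (−0.31; −0.38, −0.31), the BRCA1 partner gene *Bard1* (−0.31; −0.44, −0.26) and the strand-exchange gene *Xrcc3* (−0.30; −0.17, −0.42) had the larger differences. *Rad52* (−0.16; −0.07, −0.23), which anneals single strands, and *Xrcc2* (−0.09; 0.01, −0.20), a further strand-exchange gene, had the smaller ones. The helicase gene *Brip1* (0.08) and *Palb2* (0.16), which joins BRCA1 to BRCA2, were above 0 over all mice and in letter A (0.37 and 0.35), with −0.31 and −0.04 in letter B.

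The 6 end-resection and dissolution genes were all below 0, with a median of −0.21. *Rad50*, on chromosome 11 from 53649519 to 53707319 (minus strand), had 169, 122, 279, 181 and 229 normalised counts in the young mice and 102 to 241 in the old, with a median of 159. Both ages spanned more than a doubling, and the difference was −0.24 (SE 0.24; −0.04 in letter A, −0.24 in letter B). *Nbn* had 65.6, 38.5, 78.9, 51.4 and 84.3 in the young and 31.6 to 79.3 in the old, with a median of 63.9. It differed by −0.07 (SE 0.25), with 0.06 in letter A and −0.06 in letter B. *Rbbp8* (−0.35; −0.16 in letter A, −0.59 in letter B), *Mre11a* (−0.18; −0.24, −0.17) and the long-range resection nuclease gene *Exo1* (−0.25; −0.08, −0.51) were lower in both letters. *Blm* (−0.17), the helicase that dissolves joint molecules, had 0.20 in letter A and −0.57 in letter B.

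The Fanconi core complex, which ubiquitinates FANCD2 and FANCI at a crosslink, was the class with a median above 0 (0.33). Only 2 of its 5 genes with a row were below 0, *Fancg* (−0.03) and *Fanca* (−0.02), and the other 3 were the subunit genes *Fancf* (0.38) and *Fancb* (0.37) and the ubiquitin ligase gene *Fancl* (0.33). Within the letters *Fancl* had 0.80 in letter A and −0.25 in letter B, *Fancb* 0.80 and 0.03, *Fancg* 0.18 and −0.24, and *Fanca* −0.21 and −0.04. *Fancf* had 18.7, 13.5, 14.7, 12.4 and 6.76 in the young mice and 10.7 to 24.3 in the old, with a median of 17.6. These are low levels, and the standard error of its difference was 0.34 (0.08 in letter A, 0.59 in letter B). With the letter as a covariate the class median was 0.24, and within letter B it was −0.04.

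The substrate pair of that complex differed in sign. *Fanci*, on chromosome 7 from 79391929 to 79450264 (plus strand), had 48.2, 81.2, 33.7, 68.9 and 42.3 in the young mice and 19.2 to 59.0 in the old, with a median of 30.7. The ages overlapped, and its means of 54.9 ± 19.6 and 38.2 ± 15.9 gave a difference of −0.55 (SE 0.30), with −0.40 in letter A and −0.92 in letter B. *Fancd2* had 38.3, 53.8, 30.02, 42.6 and 45.2 in the young and 23.8 to 74.2 in the old, with a median of 43.8 inside the young range. It differed by 0.17 (SE 0.27), with 0.40 in letter A and −0.23 in letter B. *Slx4*, the scaffold for crosslink nucleases, had 75.0, 102, 99.9, 65.5 and 71.1 in the young and 43.0 to 88.1 in the old, with a median of 71.9 and a difference of −0.27 (SE 0.20; −0.51 in letter A, −0.01 in letter B). *Ercc4*, which encodes a subunit of one of those nucleases, differed by −0.08 (−0.27 in letter A, 0.20 in letter B). Exons of *Fanci*, *Fancd2*, *Fanca*, *Fancf*, *Fancl*, *Rad54l*, *Palb2*, *Mre11a*, *Rad9a*, *Rbbp8*, *Atr* and a few others overlap a gene on the opposite strand, and since the use of strand in counting is not given, reads of such pairs may not be separable either.

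Adding the letter as a covariate left the count of called members at 0, against 0.299% of all genes. Both *Rpa2* (−0.58, limma p = 0.0295, adjusted p = 0.848) and *Fanci* (−0.67, p = 0.00997, adjusted p = 0.556) then had an unadjusted p under 0.05, against 5.2% of all genes. In this fit 33 of the 39 were below 0, against 57.3%, with a median of −0.18 against −0.05. Within letter A, 26 were below 0 and 0 had an unadjusted p under 0.05 in limma (2.57% of all genes). Within letter B, 32 were below 0 and 0 were called (0.809% of all genes). There 5 had an unadjusted p under 0.05 in either direction (8.05% of all genes), and all 5 were lower: *Rad54b* (−1.26), *Fanci* (−0.92), *Clspn* (−0.59), *Rbbp8* (−0.59) and *Blm* (−0.57). The old mean was lower in both letters for 21 genes (53.8%, against 29.2% of all genes) and higher in both for 2 (5.13%, against 21.3%), and for 16 the letters had opposite signs.

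The age difference itself differed between the letters in 0 members by limma's test of age by letter, against 0.0162% of all genes. Before adjustment 2 had p under 0.05, against 3.43%. These were *Rad54b*, whose difference was lower in letter B by 1.92 (coefficient −1.92, SE 0.60, p = 0.00356), and *Atr*, for which it was higher by 0.92 (SE 0.45, p = 0.0486).

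Between the letters themselves, 7 of the 39 genes passed the test with age as a covariate, against 36.1% of all genes. In letter B 1 rose (10.5% of all genes) and 6 fell (25.6%). The letter difference went with level. Over all genes its median was 0.29 at a mean of at least 45.2 and −0.75 below that, against 0.09 and −0.18 for the members. The part of level in these counts was not tested. *Rad51c*, on chromosome 11 from 87376645 to 87404954 (minus strand), was the only member whose letters did not overlap (10.5% of all genes), with 17.6 to 37.0 and a median of 25.2 in letter A, and 7.34 to 12.4 and a median of 10.6 in letter B. It fell by 1.28 on the log2 scale (SE 0.32, adjusted p = 0.00384). *Rad54b* (−1.12, adjusted p = 0.0132), *Fanci* (−0.74, adjusted p = 0.0192), *Brca1* (−0.55, adjusted p = 0.0245) and *Fancd2* (−0.60, adjusted p = 0.0402) fell as well, and so did *Fanca* (−0.61, adjusted p = 0.0414), which is named here because it completes the count. *Rad50* rose by 0.54 (SE 0.20, adjusted p = 0.0340). The balance of these calls rested on the scaling. With the mice rescaled by median ratios, which shifts the letter difference of the median gene by 0.29, 8 members rose (27.2% of all genes) and 2 fell (20.6%), so that 80.0% of the calls were higher in letter B against 14.3% before, and 56.9% against 29.2% over all genes. *Rad51c* (−0.99) and *Rad54b* (−0.84) fell and *Rad50* (0.84) rose under both scalings.

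**Figure D3:**
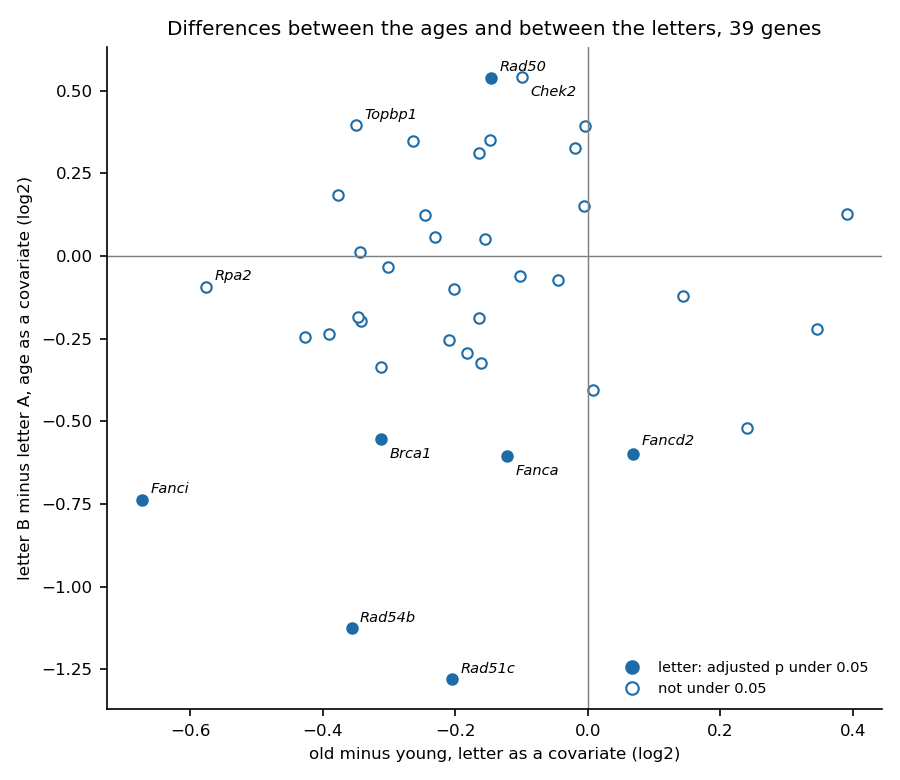
Difference between letters B and A (vertical axis, age as a covariate) against the difference between old and young mice (horizontal axis, letter as a covariate) for each of the 39 genes, both in log2 units, with filled points for an adjusted p under 0.05 between the letters. The 7 filled points are *Rad50* above 0 and 6 genes below it, down to −1.28 for *Rad51c*, and 33 of the 39 points lie left of 0.

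The summed level of all 39 genes was 2239 to 2726 normalised counts in the young mice, with a median of 2428, and 1979.5 to 2298 in the old, with a median of 2147. The ages overlapped between 2239 and 2298, where young mice 2 and 4 and old mice 3, 6 and 7 lay. Since the pathway works in dividing cells, the sum of 24 cycling genes was set beside it. That sum was 2119 to 3764 in the young mice (median 3299) and 1610.1 to 2536 in the old (median 2042). Of the 24 cycling genes 23 were below 0, with a median of −0.64. Limma, both edgeR tests and DESeq2 each called 0 of them, with 15 (limma) or 16 (the others) at an unadjusted p under 0.05. Of all tested genes, 3.95% had such a p by limma and 52.3% were below 0. Examples are the proliferation marker *Mki67* (−0.78; −0.52 in letter A, −0.83 in letter B), the topoisomerase gene *Top2a* (−0.75; −0.46, −0.95) and the replicative helicase gene *Mcm6* (−0.69; −0.59, −0.64). Within letter B limma called 5 cycling genes lower, these 3 with *Ccna2* and *Tyms*, where 19 of all 12354 tested genes were called lower. Within letter A it called 0 cycling genes, with 0 at an unadjusted p under 0.05 (2.57% of all genes). Both sums, and that of the progenitor markers (262.5 in the young, 124.0 in the old), had lower medians in the old mice, and the part of cycling cells in the differences of the repair genes was not tested.

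**Figure D4:**
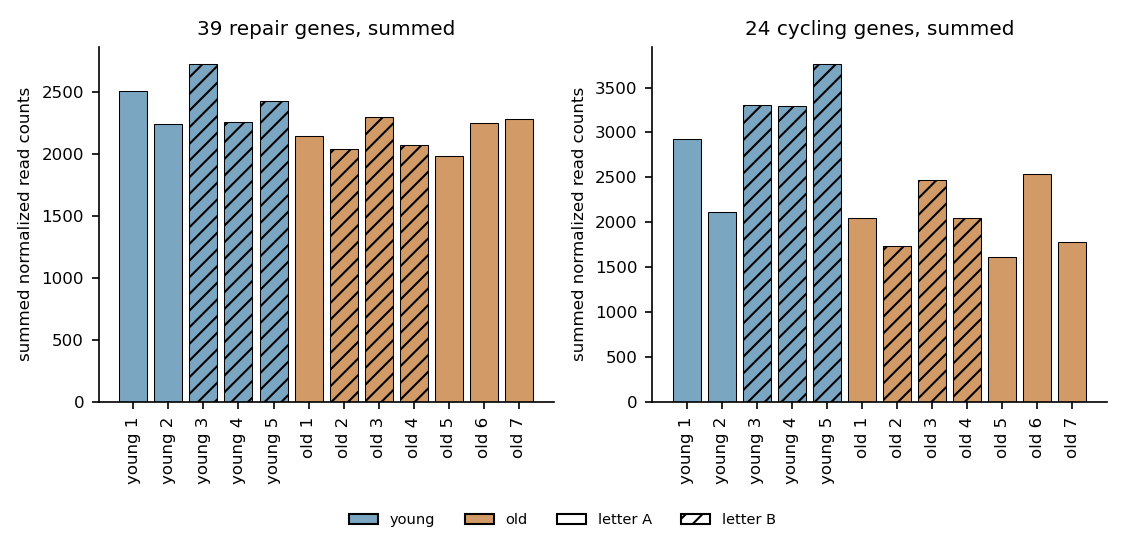
Summed normalised read counts of the 39 repair genes (left) and of the 24 cycling genes (right), with 1 bar per mouse, young in blue, old in orange and letter B hatched. The repair bars of young mice (2239 to 2726) and old mice (1979.5 to 2298) overlap, as do the cycling bars (2119 to 3764, and 1610.1 to 2536).

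In 5 lists of other genes of the same processes limma called 0, with 6 of 64 at an unadjusted p under 0.05 (3.95% of all genes). EdgeR's quasi-likelihood test called 0, with 7 unadjusted. EdgeR's likelihood-ratio test and DESeq2 each called 1 gene, *Uhrf1*, with 6 and 7 unadjusted. Limma within letter B called the same gene. In recombination, 14 of 19 tested partners were below 0, against 52.3% of all tested genes (median −0.12, 1 at an unadjusted p under 0.05). *Fignl1*, a recombination regulator, differed by −0.53 (SE 0.21; −0.62 in letter A, −0.44 in letter B; p = 0.0183, adjusted p = 0.966). In crosslink repair 8 of 16 were below 0 (median 0.00, 3 unadjusted). The nuclease gene *Fan1* was higher in the old mice (0.85; 0.65 in letter A, 0.91 in letter B; p = 0.00835, adjusted p = 0.780), while the FANCD2 deubiquitinase gene *Usp1* was lower (−0.53; −0.25, −0.64; p = 0.0310, adjusted p = 1.0). *Uhrf1*, best known for maintaining DNA methylation, was lower too, with 92.1 to 153 in the young and 35.7 to 91.7 in the old mice, which did not overlap, a difference of −0.91 (SE 0.23, p = 0.000785, adjusted p = 0.256). Its difference was −0.74 in letter A and −0.92 in letter B, where it fell (limma adjusted p = 0.0120). In break signalling 8 of 12 were below 0 (median −0.13, 0 at an unadjusted p under 0.05). Checkpoint partners had 8 of 9 below 0 (median −0.37, 1 unadjusted), with the clamp-loader gene *Rfc2* at −0.50 (−0.43 in letter A, −0.52 in letter B; p = 0.0195, adjusted p = 0.970). In end joining, the competing route that needs no sister, 4 of 8 were below 0 (median −0.03, 1 unadjusted), and *Xrcc5*, which encodes the Ku80 subunit, stood at −0.64 (−0.83 in letter A, −0.47 in letter B; p = 0.00601, adjusted p = 0.709).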

How the data were processed

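LSK-SLAM cells of 12 mice were analysed, with 24 labelled samples. The deposited values are normalised read counts per gene (unit signal), made by the authors from reads mapped to mm10; the submitters' processing notes name FastQC 0.11.8, STAR 2.5.4b and edgeR 3.24.3. The counter, its annotation and its use of strand are not given in the sources used here. In every mouse 100% of values were whole multiples (tolerance 0.0001) of what 1 read is worth, so whole reads were recovered (861047 to 5118507 per mouse). A second table, with fold changes and p-values of the authors' own comparison, was not used.

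Genes with a mean of at least 10 over the mice (12354) were tested with limma 3.58.1 (trend; R 4.3.3) on log2(value + 1), so differences of low genes are understated, with Benjamini-Hochberg adjustment over all of them and calls at 0.05. Count tests on the recovered reads (edgeR 4.0.16, DESeq2 1.42.0), the letter as a covariate, median-ratio rescaling, other filters and left-out mice were alternatives. The functions were tested on simulated data. Positions and exon lengths are from GENCODE vM21 (18745 of 18762 identifiers found).

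Members and lists were chosen with earlier results of these data known. The value of each young mouse, with the range and median of the old mice, is given for members with an unadjusted age p under 0.05. The same is given for the highest member per kb in each role, *Brca1*, *Brca2*, *Fancd2*, *Atr*, *Chek1* and, for the letters, the 5 smallest p-values in each direction. The p-values measure the spread between these mice.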

Additional observations from a re-analysis of the deposited data

Results flagged for a closer look

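In 3 of the 82 groups of values examined (members and sums, in young and in old mice), 1 mouse stood apart from the rest by Dixon's criterion at its 95% value, where chance alone gives about 1 in 20 groups. *Rad51ap1* had 44.2 normalised counts in old mouse 5, one of the shallowest mice, and 4.92 to 18.4 in the other old mice. *Rad52* had 66.9 in old mouse 1 and 22.9 to 41.5 in the others. *Blm* had 118 in young mouse 3 and 65.3 to 79.9 in the other young mice. The cause was not tested for any of these.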

How the results depend on the processing

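Over the 12 mice the 95% interval of a gene's age difference reached a median of 0.52 on the log2 scale to either side. The parts of depth and of the unexplained letter in this width were not tested. Under every alternative computed, 0 of the 39 genes were called for age (pseudocounts of 0.5 and 5, minimum means of 1 and 30 or none, no trend, rescaling by median ratios, edgeR, DESeq2, each letter, each mouse left out). At an unadjusted p under 0.05 limma had 1 gene in the main fit, 2 after rescaling, 0 in letter A and 5 in letter B, and DESeq2 had 2. The number below 0 in the old mice, 32, ran from 26 (letter A alone, and 26 of the 29 genes left at a minimum mean of 30) to 34, and over left-out mice from 28 to 34. On recovered reads 46.6% of all genes were below 0 by edgeR's quasi-likelihood fit, against 52.3% by limma. The 17 genes given singly had 694 alternative values, of which 629 kept their direction and side and 65 reversed, in 8 genes, with the other 9 never reversing.

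The count of all genes called for age, 13, was 22 at a minimum mean of 30, 2 without the trend, 5 after rescaling, 41 by edgeR's likelihood-ratio test, 57 by DESeq2, 37 with the letter as a covariate, 1 in letter A and 100 in letter B, and, chosen after seeing the data, 43 by edgeR's quasi-likelihood test with the letter and 118 with the letter and without old mice 5 and 7, the shallowest. Leaving out 1 mouse gave 3 to 76, and 32 without old mouse 5. For the letter, 4462 became 1456 at a minimum mean of 30 (fewer genes tested) and 2943 to 5003 over left-out mice. The 7 members called by letter became 2 at that minimum, 4 without the trend and 1 to 8 over left-out mice, with 1 without old mouse 2, 2 without young mouse 2, 3 without old mouse 4 and 4 without young mouse 3 or old mouse 5. Age by letter (2 genes) ran from 0 to 6.

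*Rad51c* (0.01) turned to −0.026 after rescaling, −0.050 (edgeR quasi-likelihood), −0.053 (likelihood ratio), −0.055 (DESeq2), −0.20 (letter), −0.23 (edgeR with letter), −0.30 (without both shallowest mice), −0.28 (letter A) and −0.13 (letter B). *Rad54b* turned to 0.14, 0.15 and 0.15 by the 3 count tests and to 0.66 in letter A. *Fancd2* turned to −0.23 in letter B and −0.083 without both shallowest mice, *Nbn* to 0.063 in letter A and 0.074 without those mice, *Brca2* to 0.028 in letter A, *Rad51d* to 0.0059 and *Atr* to 0.17 in letter B. Over left-out mice, in fits with and without the letter, *Rad51c* ran from −0.31 to 0.30, *Rad54b* from −0.69 to 0.14, *Fancd2* from −0.093 to 0.33, *Nbn* from −0.24 to 0.11, *Brca2* from −0.14 to 0.10 and *Chek2* from −0.28 to 0.024. Without a change of sign, *Atr* (−0.32) ran from −0.43 to −0.088 (old mouse 5 left out), *Rad50* (−0.24) from −0.40 (young mouse 2) to −0.064 (young mouse 3), *Slx4* (−0.27) from −0.34 to −0.11 (young mouse 2), *Fancf* (0.38) from 0.18 (young mouse 5) to 0.52, *Rad51d* (−0.21) from −0.28 to −0.088 (young mouse 1), *Topbp1* (−0.42) from −0.54 to −0.22 (young mouse 1), *Brca1* (−0.22) from −0.41 (young mouse 1) to −0.13 (old mouse 4), *Fanci* (−0.55) from −0.87 (young mouse 1) to −0.39, and *Rpa1* (−0.24) from −0.30 to −0.15 (old mouse 2). The cause of these changes was not tested.

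Replicate numbers join different animals of the ages: over 5 pairs the correlation of same-numbered mice averaged 0.136 (−0.559 to 0.615), and 4 of 10 mice correlated best with their own number. A replicate block over mice 1 to 5 called 19 genes for age and 0 members, against 8 for the same mice without the block, with 34 members below 0, *Rad51c* at −0.23 and *Fancd2* at −0.0082, the same values as for those mice without the block.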
